A study of Mus musculus with 29 samples.

Results

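The genes described are 10 that encode enzymes of glycolysis: Hk2, Gpi1, Pfkp, Aldoa, Tpi1, Gapdh, Pgk1, Eno1, Pkm and Ldha. They were chosen by name, as enzymes of 1 pathway, and they are 10 of the 27827 genes listed in any table of the series. All 10 are among the 15721 genes listed in every kind of table (young brain, aged brain and blood). Expression was measured by Drop-seq, a single-cell RNA sequencing method that pairs each cell with a bead in a droplet, in 29 libraries of C57BL/6J mice with stroke or sham surgery; stroke was made by blocking the middle cerebral artery for a limited time. The 18 brain libraries hold sorted CD45-high leukocytes, microglia and endothelial cells from 4 to 5 pooled hemispheres each, and the 11 blood libraries hold leukocytes pooled from 2 mice each. In each library the counts of a gene were summed over all cells of 1 deposited cell type and divided by the summed counts of all genes in that type, and levels are given as CPM on that scale.

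Young mice were males of 8 to 10 weeks, with 4 sham brain libraries at day 2, 4 stroke brain libraries at day 2 and 4 at day 14. Aged mice were 17 to 20 months old, with 2 sham brain libraries at day 2 (1 of each sex), 3 stroke libraries at day 2 (1 male, 2 female) and 1 stroke library at day 14 (female). Blood came from young mice, with 4 sham libraries at day 2, 4 stroke libraries at day 2 and 3 stroke libraries at day 14. In all brain groups, sham included, cells were released with papain in the presence of actinomycin D, an inhibitor of transcription, Brilliant Blue G, which blocks the P2X7 receptor, and AP-5, an NMDA receptor blocker; blood leukocytes of all groups were isolated with the first pair of these. No sham library of day 14 was analysed here, so time after surgery and stroke cannot be told apart in any comparison with day 14, and the comparisons of day 2 and of day 14 with sham share the sham libraries. Each library is a pool, so p-values measure the spread between pools, not between mice.

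Glycolysis splits glucose into pyruvate in the cytosol and yields ATP without oxygen. Hexokinase traps glucose as a phosphate ester, phosphofructokinase commits it to the pathway, aldolase splits the sugar in the middle, and the lower enzymes recover ATP before pyruvate is either oxidised in mitochondria or reduced to lactate by lactate dehydrogenase. Activated myeloid cells are known to raise the pathway, and in hypoxia the transcription factor HIF1 is known to bind the core sequence ACGTG in the promoters of several of these genes. Pkm encodes the enzyme that makes pyruvate, and Ldha the lactate dehydrogenase subunit that predominates in glycolytic tissue.

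In the GENCODE annotation of the mouse genome (build GRCm38), the genes lie on 6 chromosomes, with Hk2, Tpi1 and Gapdh on chromosome 6 and Gpi1, Ldha and Aldoa on chromosome 7. The protein-coding gene of Pkm spans chr9:59656368-59679375 on the plus strand, that of Ldha chr7:46841475-46855627 and that of Pgk1 chrX:106187100-106203699, both on the plus strand, and that of Hk2 chr6:82725025-82774454 on the minus strand. Promoter windows, from 250 bases before to 50 bases after an annotated start, were read from RefSeq for the mouse build GRCm38.p6, and all 10 genes matched, with 16 windows in all. Each was searched on both strands for ACGTG, so that the reverse complement of those letters counts as a match, and the palindrome CACGTG, an E-box, holds a match on each strand. A match was found in 7 of the 16 windows (43.8%) and in 6 of the 10 genes (Hk2, Gapdh, Ldha, Aldoa, Pkm and Pgk1), against 19.6% of all 32851 windows of that length and 21.8% of all 27025 genes. The matching windows of Aldoa overlap, so the same letters may count in both. The 10 genes also have more windows per gene than all genes, so the shares of genes are not fully alike. The E-box letters were in 1 of the 16 windows (6.25%), of Ldha, against 7.15% of all windows, so they were no more frequent than in the background. Stretches around matches are shown for Ldha and Pgk1, the 2 genes with the largest rise after Pkm in microglia at day 2, and for Hk2, which did not rise there. The capitals mark these letters on either strand, and a match is a description of the letters, not of binding. The Ldha stretch lies on the plus strand at chr7:46845649-46845778, from 155 to 26 bases before 1 of its annotated starts. That of Pgk1 is on the plus strand at chrX:106186940-106186989, from 160 to 111 bases before the start, and that of Hk2 on the minus strand at chr6:82774481-82774520, from 66 to 27 bases before the start.
Ldha: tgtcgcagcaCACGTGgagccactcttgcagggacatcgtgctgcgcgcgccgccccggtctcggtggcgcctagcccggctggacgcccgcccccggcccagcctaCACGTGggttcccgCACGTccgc
Pgk1: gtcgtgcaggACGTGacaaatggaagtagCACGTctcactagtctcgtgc
Hk2: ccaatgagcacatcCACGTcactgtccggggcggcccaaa

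Brain libraries held 1143 to 5121 cells with 819438 to 5855047 summed counts, and blood libraries 2360 to 6328 cells with 966914 to 5232662 summed counts. No 2 libraries shared more than 7 cell barcodes (at most 0.17% of the smaller library). In 3 young brain libraries, number 1 of sham, number 3 of stroke day 2 and number 3 of stroke day 14, the ribosomal protein gene Rps29 was at 13.9 to 21.3 CPM, against 1571 to 3546 CPM in the other 9, and Gapdh was low in the same 3. These 3 are called low in ribosomal protein genes after Rps29 alone. All ribosomal protein genes together held 5.17% to 7.87% of their counts and 7.20% to 12.4% in the other 9, and these ranges overlap. The microglia of stroke day 2 library 3 go against their label: 58 cells carry it, their 5 microglial markers summed to 222 CPM with 3 of 5 detected, against 3532 to 3821 CPM with all 5 detected in the other 3 libraries of that group, and their 6 monocyte or macrophage markers summed to 4207 CPM against 545 to 1291 CPM. They are called the cells labelled microglia of library 3, and the enzymes' tests, the counts of other lists and the mean levels of Pkm and Ldha are also given without them. In the other 11 young brain libraries the microglial markers (Gpr34, P2ry12, Sall1, Siglech and Tmem119) were all detected in microglia. Endothelial markers were all detected in endothelial cells of every group, and the monocyte or macrophage markers in monocyte-derived cells.

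In microglia after stroke, most glycolysis enzymes made up a larger share of the counts than in microglia of sham brains. At day 2, 7 of the 9 enzymes that passed the filter on low counts rose (Gpi1, Aldoa, Tpi1, Pgk1, Eno1, Pkm and Ldha) and none fell, with Pkm the largest at 8.24-fold. Hk2 and Gapdh did not pass the test, and Pfkp was not tested. Of all 10145 genes tested in this comparison 31.4% were called at an adjusted p under 0.05, and the median log2 difference was 1.69 for the 9 enzymes and -0.05 for all genes. DESeq2 called 7 of the 9 as well, without a share of all genes beside it.

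**Figure D1:**
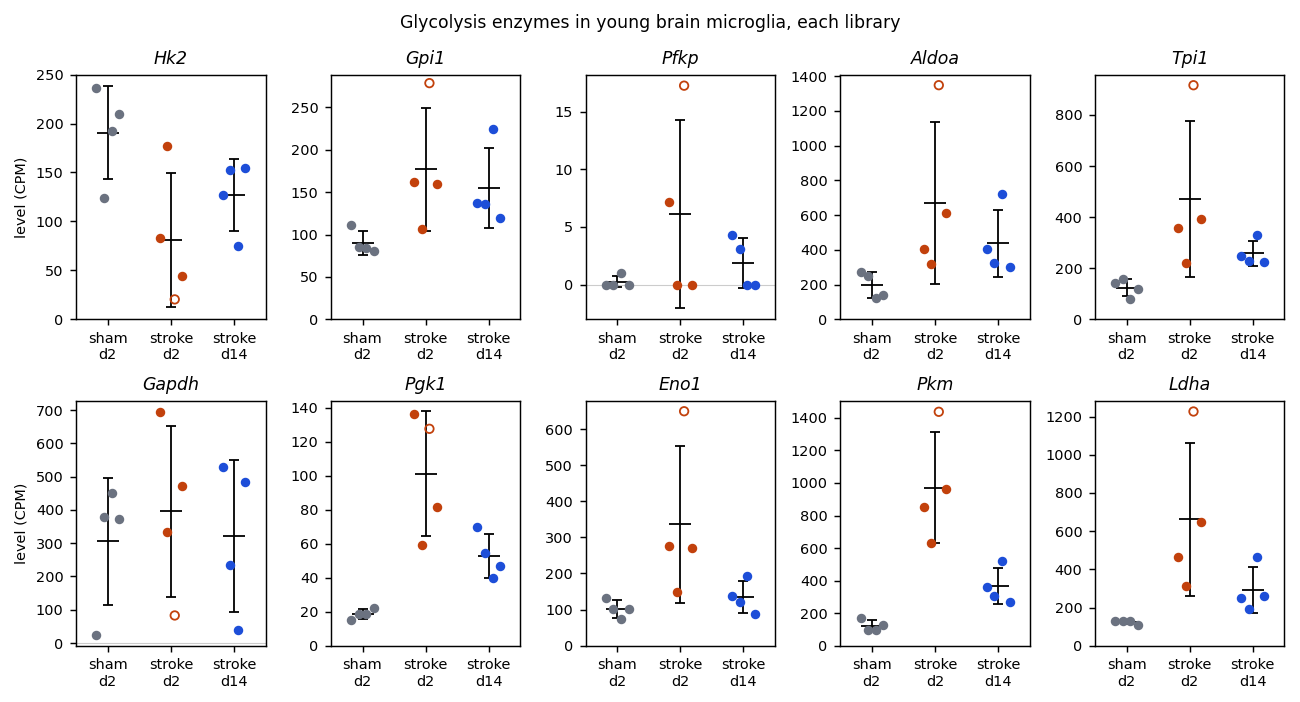
Level of each of the 10 enzymes (y axis, CPM) in microglia of young brains, by group (x axis), 1 point per library; the open circle is stroke day 2 library 3, whose cells go against the label. Pkm lies between 97.0 and 167 CPM in sham and between 630 and 1438 CPM at stroke day 2, while Hk2 lies between 124 and 236 CPM in sham and reaches 20.4 to 177 CPM at stroke day 2.

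The first enzymes of the pathway gave mixed values. Hk2, the hexokinase that adds the first phosphate, was at 236, 124, 193 and 210 CPM in the 4 sham libraries, at 83.2, 177, 20.4 and 44.1 CPM at stroke day 2 and at 127, 153, 75.4 and 154 CPM at stroke day 14. Day 2 was lower than sham in 3 of 4 libraries, and the groups overlapped through library 2. The log2 difference from sham was -0.85 ± 0.38 (SE; edgeR adjusted p = 0.101) at day 2 and -0.12 ± 0.36 (edgeR adjusted p = 0.85) at day 14. Without the cells labelled microglia of library 3 the day 2 difference was -0.78 ± 0.38 (edgeR adjusted p = 0.141). Gpi1, which turns glucose 6-phosphate into fructose 6-phosphate, was at 111, 85.1, 84.1 and 80.4 CPM in sham and at 162, 107, 279 and 160 CPM at day 2. All day 2 libraries but number 2 lay above every sham library, and the gene rose by 0.94 ± 0.26 on the log2 scale (edgeR adjusted p = 0.0157). The call was lost without stroke day 2 library 4 (0.83, edgeR adjusted p = 0.0666). Pfkp, the platelet type of phosphofructokinase, was at 0, 0, 1.03 and 0 CPM in sham and at 7.17, 0, 17.3 and 0 CPM at day 2, so it was close to undetected in microglia and was not tested.

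Aldoa encodes the aldolase that cuts fructose 1,6-bisphosphate. It was at 272, 252, 124 and 141 CPM in sham and at 403, 317, 1348 and 613 CPM at day 2, and the groups did not overlap. The rise was 1.69 ± 0.42 on the log2 scale (edgeR adjusted p = 0.0095). Tpi1, which interconverts the 2 triose phosphates that aldolase makes, was at 142, 157, 79.5 and 121 CPM in sham and at 357, 222, 916 and 392 CPM at day 2. Again every day 2 library lay above every sham library, with a rise of 1.82 ± 0.33 (edgeR adjusted p = 0.00144). The share of all genes without overlap was not counted, so such separations in microglia are a description. In both genes the highest value was that of the cells labelled microglia of library 3, and without them the rises were 1.38 ± 0.41 (edgeR adjusted p = 0.0259) for Aldoa and 1.57 ± 0.29 (edgeR adjusted p = 0.00295) for Tpi1.

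Pgk1, the kinase that makes the first ATP of the lower pathway, stood at 15.0, 18.5, 18.8 and 22 CPM in sham and at 136, 59.4, 128 and 81.7 CPM at day 2. The sham values lay close together, and every day 2 library was above all of them. The rise was 2.51 ± 0.29 on the log2 scale, or 5.71-fold (edgeR adjusted p = 7.24e-05). Eno1, the enolase, was at 132, 102, 72.7 and 101 CPM in sham and at 275, 150, 650 and 270 CPM at day 2, a rise of 1.60 ± 0.34 (edgeR adjusted p = 0.00418) with no overlap. Pkm was at 167, 97.0, 99.4 and 128 CPM in sham and at 852, 630, 1438 and 964 CPM at day 2. This was the largest difference among the enzymes, 3.04 ± 0.30 on the log2 scale (edgeR adjusted p = 2.15e-05). Ldha was at 129, 132, 130 and 110 CPM in sham and at 464, 312, 1227 and 647 CPM at day 2, a rise of 2.36 ± 0.36, or 5.14-fold (edgeR adjusted p = 0.000494). Without the cells labelled microglia of library 3, all 7 calls held, with 2.51 ± 0.30 for Pgk1, 1.39 ± 0.32 for Eno1, 2.94 ± 0.30 for Pkm, 2.13 ± 0.35 for Ldha and 0.87 ± 0.27 for Gpi1.

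Gapdh, the dehydrogenase between triose phosphate isomerase and Pgk1, varied widely between libraries of 1 group. It was at 25.6, 378, 451 and 371 CPM in sham microglia, at 694, 332, 82.9 and 472 CPM at day 2 and at 528, 234, 39.4 and 482 CPM at day 14. The lowest library of each group is the 1 that is also low in ribosomal protein genes, and the groups overlapped. The log2 difference from sham was 0.62 ± 0.79 (edgeR adjusted p = 0.565) at day 2 and 0.48 ± 0.78 (edgeR adjusted p = 0.712) at day 14, and at day 2 it was 0.86 ± 0.82 (edgeR adjusted p = 0.442) without the cells labelled microglia of library 3. Mouse has many processed copies of Gapdh, which are near-identical to its mRNA, and rows of 158 such copies in the young brain tables together held 172 to 1270 CPM over whole libraries. Over all cells, the Gapdh row held 23.2 to 36.7 CPM in the 3 libraries low in ribosomal protein genes and 182 to 548 CPM in the other 9. Adding the copies gave 217 to 444 CPM and 539 to 1559 CPM, so the 3 libraries stayed lowest. The step of the authors' counting that splits reads between Gapdh and its copies was not given in the sources used here.

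With the copies added, Gapdh in microglia differed from sham by 1.45 ± 0.52 at day 2 (edgeR adjusted p = 0.048) and by 1.47 ± 0.52 at day 14 (edgeR adjusted p = 0.068). Without the 3 libraries low in ribosomal protein genes, the differences of its own row were 0.46 ± 0.33 (edgeR adjusted p = 0.295) and 0.44 ± 0.33 (edgeR adjusted p = 0.385). With terms for the classes of libraries low in ribosomal protein or mt-Rnr2 counts, they were 0.72 ± 0.31 (edgeR adjusted p = 0.0799) and 0.70 ± 0.28 (edgeR adjusted p = 0.0838). The copies held 257 to 1270 CPM in the 5 young brain libraries low in mt-Rnr2 and 172 to 408 CPM in the other 7. No other enzyme had copies at more than 44.6 CPM in a library (Aldoa), and Hk2, Pfkp and Pgk1 had none listed with counts. These alternatives were added after the data were seen.

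By day 14, 6 of the 9 enzymes were still above sham in microglia: Gpi1, Aldoa, Tpi1, Pgk1, Pkm and Ldha. None fell, 15.2% of all genes were called, and the median difference was 1.504 for the 9 enzymes and -0.04 for all genes. Pkm was at 362, 306, 521 and 271 CPM, above all sham libraries, with a log2 difference from sham of 2.05 ± 0.28 (edgeR adjusted p = 0.000302). Pgk1 was at 70.0, 54.8, 39.9 and 46.7 CPM (1.98 ± 0.28, edgeR adjusted p = 0.000393). Ldha was at 251, 191, 464 and 263 CPM (1.69 ± 0.34, edgeR adjusted p = 0.0054). These 3 genes of the lower pathway had all 4 day 14 libraries above all 4 sham libraries. Tpi1 was at 249, 229, 329 and 224 CPM (a 2.84-fold rise, edgeR adjusted p = 0.00615), Gpi1 at 137, 136, 225 and 120 CPM (1.25 ± 0.25, edgeR adjusted p = 0.00472), and Aldoa at 405, 323, 720 and 302 CPM (1.62 ± 0.41, edgeR adjusted p = 0.0184). The groups did not overlap in these 3 genes of the upper and middle pathway either. How many of all genes separated from sham in this way was not counted, so the separation is a description. Eno1, at 139, 121, 192 and 86.6 CPM, overlapped sham and did not pass the test (0.87 ± 0.32, edgeR adjusted p = 0.08). The call of Aldoa was lost without sham library 3 (1.48, edgeR adjusted p = 0.0802), sham library 4 (edgeR adjusted p = 0.0874) or day 14 library 3 (1.22, edgeR adjusted p = 0.0545), and with library sizes not scaled by TMM (1.15, edgeR adjusted p = 0.0526).

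Between the 2 stroke times, 1 of the 9 enzymes passed the test in microglia, where 6.93% of all genes were called. Pkm was lower at day 14 than at day 2 by 0.99 ± 0.28 on the log2 scale (change -0.99, edgeR adjusted p = 0.046), and the 4 libraries of each time did not overlap. Its adjusted p was 0.0823 without the cells labelled microglia of library 3, and leaving out day 2 library 1 or 4 or day 14 library 1, 2 or 4 ended the call too (edgeR adjusted p of 0.0714, 0.156, 0.112, 0.109 and 0.139). So did counts rounded up per cell (-0.66, edgeR adjusted p = 0.298) and a fit without the filter on low counts (0.0982). It was also lost with only the compared groups (0.0697) or the replicate number as a block (0.0637). The other enzymes gave values from -0.73 (Eno1) to 0.73 (Hk2).

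The markers of other cells moved with these results. In microglia the 6 monocyte or macrophage markers summed to 233 to 393 CPM in sham, 545 to 4207 CPM at day 2 and 2151 to 3153 CPM at day 14, while the 5 microglial markers summed to 8429 to 10363, 222 to 3821 and 2638 to 4051 CPM. Between 1 and 6 of the 6 monocyte or macrophage markers were detected per library, and their part in the result was not tested. A larger share of RNA and a larger level per cell cannot be told apart in summed counts. Scaling also bears on the sizes: without TMM scaling the median of all genes moved by -0.17 at day 2 and -0.45 at day 14, and 7 enzymes were still called at day 2.

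**Figure D2:**
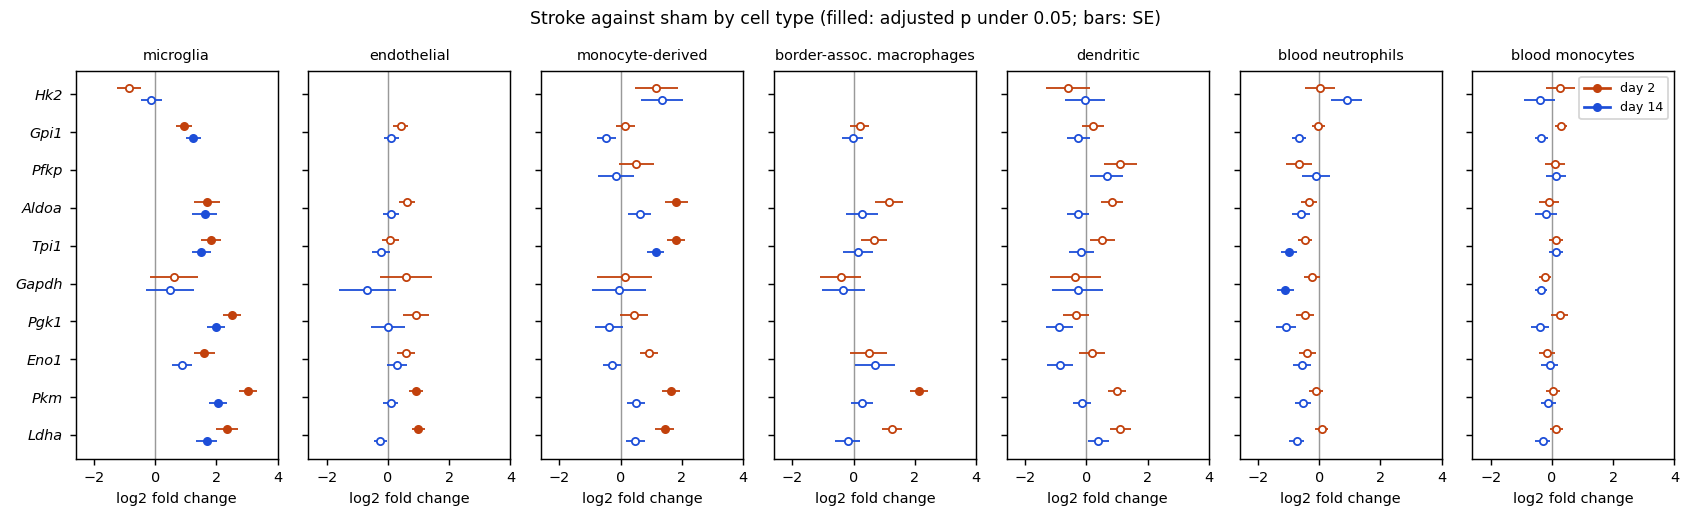
Log2 difference from sham (x axis) of each enzyme (y axis) at stroke day 2 and stroke day 14 in microglia, endothelial cells, monocyte-derived cells, border-associated macrophages and dendritic cells of the brain and in neutrophils and monocytes of blood; bars are 1 SE and filled points have an edgeR adjusted p under 0.05. In microglia 7 points are filled at day 2 and 6 at day 14, and in endothelial cells Pkm and Ldha are filled at day 2.

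Around the pathway, other lists of genes were counted in the same day 2 fit of microglia, where 31.4% of all genes were called, the background for these counts. Of the 8 tested of the other glycolysis enzymes, 1 rose, Pgam1 (phosphoglycerate mutase, 1.19 ± 0.37), with a list median of -0.06. Among 10 tested transporters and regulators, 3 rose and 1 fell. Slc16a3, the lactate exporter MCT4, rose from 29.8, 15.4, 17.0 and 9.60 CPM in sham to 77.9, 47.1, 127 and 70.8 CPM (2.09 ± 0.38, edgeR adjusted p = 0.00142), with no overlap. Slc2a6, a glucose transporter of the GLUT family, was at 0.507, 0.938, 0 and 0.41 CPM in sham and at 38.4, 24.2, 35.6 and 35.0 CPM at day 2 (edgeR adjusted p = 5.31e-05), so that its sham level is near the limit of counting. Pdk3, which restrains pyruvate dehydrogenase, rose by 1.84 ± 0.36, and Slc16a7, the monocarboxylate transporter MCT2, fell by 1.45 (SE 0.35). In the pentose phosphate pathway, the branch that yields NADPH, 4 of 7 genes rose: Pgd, Pgls, Taldo1 and Tkt, by 0.76 to 1.02. Of 6 genes of pyruvate entry into mitochondria 1 rose, Mpc2 (0.79 ± 0.23). Without the cells labelled microglia of library 3, where 27.5% of all genes were called, the calls of these lists held except that of Pgd.

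Genes of the hypoxia response list, which includes Hif1a itself, did not move in 1 direction in microglia at day 2. Of 11 tested, 2 rose, Hif1a (0.82 ± 0.25) and Hilpda (1.59 ± 0.48), and 3 fell, Ddit4 (-2.05 ± 0.38), Kdm3a (-1.24 ± 0.30) and Mxi1 (-0.86 ± 0.31), with a list median of -0.45; without the cells labelled microglia of library 3 the call of Mxi1 was lost and the median was -0.37. All 12 genes of the proliferation list rose, with a list median of 6.51, a fitted value that depends on the prior count where sham counts are few; Mki67, a marker of dividing cells, was at 0 to 10.95 CPM in sham and 16.2 to 379 CPM at day 2. At day 14, Pfkl and Pgam1 of the 8 other glycolysis enzymes rose (0.98 ± 0.27 and 1.14 ± 0.35), 2 of 10 transporters and regulators rose (Slc16a3 and Slc2a6), and 9 of the 12 proliferation genes did, where 15.2% of all genes were called. Of the 11 hypoxia genes, Egln3, Hif1a and Hilpda rose at day 14 and Ddit4 fell. The list median of each remained a description, since the lists were chosen with earlier results known.

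Within microglia the deposited annotation names 8 subtypes, and different ones held most of the cells in each group. Mg1 and Mg2 together held 83.8% to 97% of microglia in the sham libraries and 1.72% to 28.7% at day 2, Mg4 and Mg5 together 0.935% to 3.52% in sham and 64.8% to 98.3% at day 2, and Mg3 59.3% to 76.4% at day 14. Without the cells labelled microglia of library 3, the day 2 shares were 14.4% to 28.7% for Mg1 and Mg2 and 64.8% to 78.3% for Mg4 and Mg5. Since the subtypes were formed from these cells, their levels are described without a test, over libraries with at least 20 cells of a subtype and within 1 group at a time. In sham the median of Pkm was 130 CPM in Mg1 (4 libraries), 92.4 CPM in Mg2 (4), 125 CPM in Mg3 (2), 209 CPM in Mg4 (3), 114 CPM in Mg5 (3), 74.2 CPM in Mg6 (2) and 136 CPM in Mg8 (3), and the 1 sham library with enough Mg7 cells had none. At day 2 it was 228 CPM in Mg1 (3 libraries), 202 CPM in Mg2 (2), 520 CPM in Mg3 (3), 1216 CPM in Mg4 (4), 783 CPM in Mg5 (3) and 847 CPM in Mg8 (2). The proliferation list was instead summed over all young brain libraries and groups together, with no minimum of cells and with library 3 included. On that scale it was highest in Mg5, at 3199 summed CPM, then in Mg4 (275 CPM) and Mg8 (234 CPM). The other subtypes were at 14.5 to 60.0 CPM, with Mg1 at 17.1 CPM. Inside subtypes the comparison of conditions was uneven. In Mg4, Pkm was at 194 to 448 CPM in sham and 919 to 1528 CPM at day 2, where the highest value is that of the cells labelled microglia of library 3 and the range without them is 919 to 1227 CPM. In Mg5 it was at 108 to 311 CPM in sham and 555 to 909 CPM at day 2, in Mg3 at 119 to 131 and 460 to 599 CPM, in Mg8 at 91.6 to 191 and 838 to 855 CPM, and in Mg1 at 104 to 179 and 228 to 266 CPM, all without overlap. In Mg2 the ranges overlapped, at 81.1 to 144 CPM in sham and 61.7 to 342 CPM at day 2. Ldha in Mg1 overlapped between sham (98.0 to 126 CPM) and day 2 (102 to 167 CPM), and in Mg4 it did not (59.4 to 277 CPM and 384 to 1334 CPM, or 384 to 642 CPM without library 3). The median of Hk2 in sham was 194 CPM in Mg1, 210 CPM in Mg2, 144 CPM in Mg3, 225 CPM in Mg4, 217 CPM in Mg5, 163 CPM in Mg6 and 116 CPM in Mg8, with 311 CPM in the 1 library of Mg7. At day 2 it was 141, 134, 102, 38.5 and 72.9 CPM in Mg1 to Mg5 and 126 CPM in Mg8, and the ranges of Mg1 (93.5 to 319 CPM) and Mg4 (22.2 to 146 CPM) overlapped. Without the cells labelled microglia of library 3, Hk2 in Mg4 had a median of 41.1 CPM and a range of 35.9 to 146 CPM.

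In endothelial cells Pkm and Ldha, the last 2 enzymes, rose at day 2, which is 2 of the 8 enzymes tested, where 13.3% of 5833 genes were called. The difference between this response and that of microglia was not tested. Hk2 and Pfkp did not pass the filter. The median difference was 0.61 for the 8 enzymes and 0.00 for all genes, and DESeq2 called 2 of the 8. Ldha was at 480, 411, 394 and 289 CPM in sham, 697, 622, 761 and 870 CPM at day 2 and 303, 326, 431 and 273 CPM at day 14. Day 2 lay above both other groups in every library, with a rise over sham of 0.99 ± 0.22, or 1.99-fold (edgeR adjusted p = 0.00886), and a fall from day 2 to day 14 of 1.24 on the log2 scale (SE 0.22; edgeR adjusted p = 0.00262). Pkm was at 382, 207, 261 and 197 CPM in sham, 478, 409, 461 and 525 CPM at day 2 and 323, 251, 376 and 174 CPM at day 14. It rose by 0.92 ± 0.24 at day 2 (edgeR adjusted p = 0.0197) and fell by 0.82 from day 2 to day 14 (SE 0.23; edgeR adjusted p = 0.0336). From day 2 to day 14, 2 of 8 enzymes fell and 11.2% of all genes were called. Gapdh was at -1.26 ± 0.84 there (edgeR adjusted p = 0.356), and it was called without the 3 libraries low in ribosomal protein genes (-1.26 ± 0.33, edgeR adjusted p = 0.0338) and with terms for the classes of libraries low in ribosomal protein or mt-Rnr2 counts (-1.34 ± 0.28, edgeR adjusted p = 0.00315). With its processed copies added it was not called (-0.85 ± 0.57, edgeR adjusted p = 0.358).

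The other endothelial enzymes had smaller or less even differences. Aldoa was at 392, 276, 198 and 194 CPM in sham and 344, 309, 447 and 462 CPM at day 2 (0.63 ± 0.26, edgeR adjusted p = 0.117). Pgk1 was at 28.7, 28.8, 12.9 and 68.1 CPM in sham and 99.6, 45.1, 39.1 and 54.0 CPM at day 2 (0.92 ± 0.43, edgeR adjusted p = 0.168). Both overlapped sham. Gpi1, Tpi1, Gapdh and Eno1 gave 0.41, 0.08, 0.58 and 0.59, each with overlap. Gapdh gave 1.12 ± 0.59 with its processed copies added and 0.05 ± 0.37 with terms for the library classes, and neither passed the test. At day 14 against sham edgeR called 0 of the 8 enzymes and 0% of all genes, with 0 enzymes at an unadjusted p under 0.05 and 0 called by DESeq2; the values ran from -0.68 (Gapdh, 0.27 with its processed copies added) to 0.29 (Eno1). The day 2 call of Pkm was lost without sham library 2, 3 or 4 (edgeR adjusted p of 0.0739, 0.0632 and 0.072), and its day 14 call without stroke day 2 library 1, 3 or 4 or day 14 library 1, 2 or 4 (edgeR adjusted p between 0.0555 and 0.0973), while Ldha was called in each of these fits. Endothelial cells held Slc2a1, the blood-brain barrier glucose transporter, at 863 to 2026 CPM in sham and 985 to 1150 CPM at day 2. Of the 12 hypoxia genes tested there 0 rose and 3 fell at day 2 (Kdm3a, Mxi1 and Ndrg1, by 1.08 to 1.23), where 13.3% of all genes were called. Bpgm rose as 1 of 3 other glycolysis enzymes tested (0.97 ± 0.31), and Pgls and Taldo1 as 2 of 5 pentose phosphate genes (0.93 ± 0.28 and 1.20 ± 0.23). The microglial markers in endothelial cells summed to at most 24.6 CPM in sham and 2.14 CPM at day 2.

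The endothelial subtypes of the deposited annotation also differed in share between the groups. EC1 held 47.4% to 67.8% of endothelial cells in the sham libraries and 19.4% to 27.8% at day 2, EC2 0.339% to 5.49% in sham and 32.7% to 59.2% at day 2, and EC3 22.1% to 36.3% at day 14. At day 2 the median of Ldha was 707 CPM in EC1 and 856 CPM in EC2, and that of Pkm 509 and 535 CPM (4 libraries each). Within EC1 both genes overlapped between sham and day 2, with Ldha at 257 to 557 and 474 to 792 CPM and Pkm at 194 to 504 and 473 to 545 CPM. Ldha did not overlap in EC4 (142 to 313 and 337 to 699 CPM) or EC5 (286 to 297 and 483 to 719 CPM) and did in EC3, while Pkm overlapped in all 3. The part of the subtypes in the rise of the whole class was not tested.

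Monocyte-derived cells, the leukocytes that enter the injured brain, had few cells in sham brains (43 to 99 per library) and 1468 to 2180 at stroke day 2. At day 2, 4 of 10 enzymes rose (Aldoa, Tpi1, Pkm and Ldha) and none fell, with 6.71% of 8080 genes called; DESeq2 called 4 too. The median difference was 1.04 for the 10 enzymes against 0.29 for all genes, and without TMM scaling the latter moved by -0.42. Aldoa was at 385, 335, 325 and 294 CPM in sham and 627, 701, 1018 and 1025 CPM at day 2 (1.82 ± 0.37, edgeR adjusted p = 0.00845). Tpi1 was at 164, 203, 165 and 120 CPM in sham and 446, 390, 467 and 437 CPM at day 2 (1.81 ± 0.29, edgeR adjusted p = 0.00155). For both middle enzymes all day 2 libraries were above all sham libraries, a description, since the share of all genes that separated so was not counted. Pkm was at 657, 488, 405 and 529 CPM in sham and 1231, 1033, 1107 and 1332 CPM at day 2 (1.64 ± 0.29, edgeR adjusted p = 0.00363). Ldha was at 347, 340, 279 and 601 CPM in sham and 614, 633, 772 and 832 CPM at day 2 (1.44 ± 0.31, edgeR adjusted p = 0.0116). Sham library 4 came close to the stroke values in Ldha, and in Pkm the gap between the groups was wide. The Ldha call was lost without sham library 3 (1.46, edgeR adjusted p = 0.0501) and without TMM scaling (0.95, edgeR adjusted p = 0.0735). Gpi1, Gapdh and Pgk1 did not pass the test (0.15, 0.12 and 0.43), and Gapdh with its processed copies added gave 0.76 ± 0.54.

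Different subtypes hold most monocyte-derived cells in the groups: MdC3 held 67.4% to 91.5% of them in the sham libraries, 11.8% to 16.6% at day 2 and 8.09% to 20.1% at day 14. Within MdC3, the subtype with at least 20 cells in the sham libraries, all 4 genes overlapped between sham and day 2. Pkm was at 398 to 722 CPM in sham and 695 to 933 CPM at day 2, Ldha at 255 to 646 and 394 to 650 CPM, Aldoa at 361 to 409 and 224 to 696 CPM, and Tpi1 at 0 to 165 and 150 to 211 CPM. The part of the subtypes in the differences of the whole class was not tested.

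Eno1 in monocyte-derived cells was 363, 348, 314 and 352 CPM in sham, 496, 327, 525 and 511 CPM at day 2 and 198, 143, 303 and 193 CPM at day 14. The middle group was highest, and the difference of day 2 from sham did not pass the test (0.91 ± 0.30, edgeR adjusted p = 0.0818). From day 2 to day 14, 2 of 10 enzymes fell, Eno1 by 1.19 (SE 0.27; edgeR adjusted p = 0.0342) and Pkm by 1.15 (SE 0.27; edgeR adjusted p = 0.0446), where 1.79% of all genes were called. At an unadjusted p under 0.05 there were 7 of 10, and DESeq2 called 4. The share of all genes at these thresholds is not given here, so these counts have no background. At day 14 Pkm was at 507, 487, 779 and 410 CPM, Ldha at 329, 276, 568 and 342 CPM and Aldoa at 347, 247, 641 and 282 CPM, all overlapping sham. Tpi1, at 262, 240, 378 and 238 CPM, was the 1 of 10 enzymes above sham at day 14 (1.14 ± 0.29, edgeR adjusted p = 0.0304), with 5.15% of all genes called. Both calls of day 14 against day 2 were lost when day 2 library 1, 3 or 4 or day 14 library 1, 2 or 4 was left out (edgeR adjusted p up to 0.17 for Eno1 and 0.213 for Pkm), and the Tpi1 call was lost when any of the 8 libraries was left out (edgeR adjusted p between 0.0512 and 0.107). Eno1 and Pkm were also lost with at least 100 cells per library or only the compared groups (edgeR adjusted p of 0.0789 and 0.066 in each). Tpi1 was also lost without TMM scaling (0.74, edgeR adjusted p = 0.113). Without the 3 libraries low in ribosomal protein genes its difference was 0.89 (edgeR adjusted p = 0.215).

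The lists around the pathway gave calls for hypoxia genes in monocyte-derived cells. At day 2, where 6.71% of all genes were called, 4 of 11 hypoxia genes rose and 0 fell: Hif1a (1.70 ± 0.32), Hilpda (3.02 ± 0.55), P4ha1 (1.32 ± 0.32) and Vegfa (2.54 ± 0.62). Hif1a was at 159, 136, 88.0 and 103 CPM in sham and 324, 285, 323 and 346 CPM at day 2, with no overlap. Pfkfb3, whose product raises phosphofructokinase activity, rose by 2.72 ± 0.59 as 1 of 7 transporters and regulators tested, and Pfkl, the liver type of phosphofructokinase, by 2.29 ± 0.62 as 1 of 7 other glycolysis enzymes. Of the 6 genes of pyruvate entry and the 7 of the pentose phosphate pathway, edgeR called 0, with 0 at an unadjusted p under 0.05. Hk2 was at 53.6, 22.3, 6.34 and 0 CPM in sham and 59.3, 83.8, 28.4 and 19.7 CPM at day 2 (1.16 ± 0.70, edgeR adjusted p = 0.391), and Pfkp at 97.3, 0, 72.0 and 0 CPM and 73.6, 45.3, 50.4 and 60.0 CPM (0.50 ± 0.57, edgeR adjusted p = 0.709). Both overlapped sham.

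Among the less abundant brain cells, Pkm was the enzyme that moved in border-associated macrophages, the resident macrophages of meninges and vessels. It was at 118, 86.5, 154 and 42.6 CPM in sham, 446, 478, 555 and 504 CPM at day 2 and 136, 73.5, 163 and 81.2 CPM at day 14. It rose by 2.14 ± 0.30 at day 2 (edgeR adjusted p = 0.00185), as 1 of 7 enzymes tested with 2.67% of 1313 genes called, and fell by 1.86 from day 2 to day 14 (SE 0.32; edgeR adjusted p = 0.026), as 1 of 7 with 0.838% called. Sham and day 14 overlapped each other and neither overlapped day 2. In Ldha too every day 2 library lay above every sham library, at 130, 129, 177 and 146 CPM in sham and 255, 386, 407 and 398 CPM at day 2, without passing the test (1.25 ± 0.33, edgeR adjusted p = 0.0604). Aldoa, Tpi1, Eno1, Gpi1 and Gapdh gave 1.16, 0.66, 0.50, 0.21 and -0.42 at day 2, and Hk2, Pfkp and Pgk1 did not pass the filter. The direction of Gapdh turned with its processed copies added (0.16 ± 0.53). Day 14 against sham gave 0 of 7 by edgeR, with 0.0762% of all genes called, 0 at an unadjusted p under 0.05 and 0 by DESeq2. The fall of Pkm was lost without day 14 library 1 (edgeR adjusted p = 0.167), day 14 library 4 (0.0713) or day 2 library 4 (0.0617), and DESeq2 gave it no adjusted p. The subtypes BAM3 and BAM4 together held 1.92% to 27.1% of these cells in the sham libraries and 34.6% to 58.1% at day 2. Of them BAM4 held 0% to 3.74% in sham and 17.6% to 45.3% at day 2, without overlap. BAM3 overlapped, at 1.92% to 23.4% in sham and 2.11% to 28.6% at day 2. Over all young libraries with at least 20 cells the median of Pkm was 46.6 CPM in BAM1, 162 CPM in BAM2, 408 CPM in BAM3 and 768 CPM in BAM4, the last from 2 libraries of day 2. Within BAM2 Pkm was at 46.5 to 162 CPM in the 4 sham libraries and at 214 and 321 CPM in 2 libraries of day 2, without overlap, and BAM1 and BAM3 had 1 such library of day 2 each (185 and 1001 CPM), above their sham ranges. The part of the subtypes in the rise was not tested.

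In dendritic cells edgeR called 0 of 10 enzymes at day 2 (1.01% of 4365 genes called), at day 14 against sham (1.53%) and between the 2 times (0.893%). At an unadjusted p under 0.05 there were 3, 0 and 5 of them, and DESeq2 called 0, 0 and 1, without a share of all genes beside them. Pkm was at 268, 91.5, 304 and 159 CPM in sham, 437, 308, 408 and 440 CPM at day 2 and 184, 152, 236 and 143 CPM at day 14. Day 2 was above sham in all libraries (1.00 ± 0.29, edgeR adjusted p = 0.12), and above day 14 (-1.15 ± 0.26 from day 2 to day 14, edgeR adjusted p = 0.0513). The other day 2 differences from sham were 1.11 for Ldha and Pfkp, 0.83 for Aldoa, 0.53 for Tpi1, 0.22 for Gpi1, 0.19 for Eno1, -0.34 for Pgk1, -0.35 for Gapdh (0.26 with its processed copies added) and -0.60 for Hk2. For T cells of the brain edgeR called 0 of 6 enzymes in each of the 3 comparisons, with 0%, 0.0954% and 0% of 1048 genes called, and for NK cells 0 of 7 between the 2 stroke times, with 0% of 1685 genes; none of them was at an unadjusted p under 0.05 or called by DESeq2. In brain B cells none of the 10 passed the filter. The libraries used held 61 to 537 dendritic cells and 43 to 356 T cells, which limits what could be detected.

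Hk2 and Pfkp were close to undetected in some cell types. In sham brain, Hk2 was at 191 ± 47.9 CPM (SD, n = 4) in microglia, so that its lowest library was above the highest library of every other type, with border-associated macrophages at 46.7 ± 27.1 CPM and dendritic cells at 45.5 ± 16.4 CPM next and overlapping each other. In endothelial cells it was at 0, 0, 0 and 1.91 CPM in sham, 3.26, 3.75, 0 and 0 CPM at day 2 and 2.03, 8.88, 0 and 0 CPM at day 14. Pfkp differed, with dendritic cells at 69.6 ± 88.2 CPM, T cells at 50.5 ± 42.9 CPM and monocyte-derived cells at 42.3 ± 49.9 CPM in sham, all overlapping, and microglia at 0.26 ± 0.52 CPM. At day 2 dendritic cells were at 176 ± 46.1 CPM of Pfkp and T cells at 113 ± 21.9 CPM (n = 3), which overlapped.

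The order of cell types differed between Pkm and Ldha. It covers types with 2 or more libraries in the group, which leaves out epithelial cells, with 1 sham library (Pkm at 558 CPM). In sham brain Pkm was at 933 ± 167 CPM in granulocytes, 520 ± 105 CPM in monocyte-derived cells and 261 ± 85.1 CPM in endothelial cells (each n = 4), with no overlap between these 3 neighbours, and then, after mural cells (226 ± 0.714 CPM, n = 2), at 206 ± 97.9 CPM in dendritic cells, 177 ± 142 CPM in T cells, 123 ± 32.7 CPM in microglia, 100 ± 47.2 CPM in border-associated macrophages and 65.6 ± 95.4 CPM in B cells, all overlapping their neighbours. After stroke at day 2 the same gene was at 1299 ± 730 CPM in granulocytes, 1176 ± 132 CPM in monocyte-derived cells and 971 ± 341 CPM in microglia, which overlapped, and microglia were separated from border-associated macrophages at 496 ± 45.8 CPM. Microglia held rank 7 of 9 types in sham and rank 3 at day 2, and without the cells labelled microglia of library 3 their day 2 mean was 815 ± 170 CPM (n = 3), still above every library of border-associated macrophages. Ldha in sham ran from granulocytes at 501 ± 199 CPM through T cells at 469 ± 200, endothelial cells at 394 ± 79.1 and monocyte-derived cells at 392 ± 143 to dendritic cells at 290 ± 87.8 and mural cells at 249 ± 91.3 (n = 2), then border-associated macrophages at 145 ± 22.1, microglia at 125 ± 10.3 and B cells at 93.8 ± 66.5 CPM. In stroke brain at day 2, endothelial cells (737 ± 105 CPM), monocyte-derived cells (713 ± 106 CPM), microglia (662 ± 400 CPM) and dendritic cells (638 ± 226 CPM) overlapped, as did T cells (609 ± 195 CPM, n = 3) and granulocytes (483 ± 223 CPM). Without the cells labelled microglia of library 3 the microglial mean of Ldha was 474 ± 168 CPM (n = 3), below that of each of these types.

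Direct tests within the same libraries gave the sizes of these differences. Sham endothelial cells against sham microglia, with the library as a block and 49.9% of 8118 genes called, had 4 of 9 enzymes higher and 2 lower. Ldha was higher by 1.67 ± 0.18 (edgeR adjusted p = 4.16e-08), Pkm by 1.12 ± 0.19 (edgeR adjusted p = 2.58e-05), Gpi1 by 0.73 ± 0.20 (edgeR adjusted p = 0.00418) and Pgk1 by 0.94 ± 0.38 (edgeR adjusted p = 0.0466). Gapdh was lower, at -1.20 ± 0.22 (edgeR adjusted p = 5.46e-05), and Hk2 was lower (edgeR adjusted p = 2.7e-10) with the levels given above. Aldoa, Tpi1 and Eno1 gave 0.44, 0.28 and -0.08 and did not pass the test. The Pgk1 call was lost without any 1 of the 4 libraries (0.55 and edgeR adjusted p = 0.347 without library 4), with DESeq2 (adjusted p = 0.129), and in edgeR without the filter (adjusted p = 0.111), without TMM scaling (0.0509), with counts rounded up (0.0701) and with ribosomal protein and mitochondrial rows left out (0.0605). The Gpi1 call was lost without library 3 (0.53, edgeR adjusted p = 0.0702) and with DESeq2 (adjusted p = 0.052). With 49.9% of all genes called, 6 of 9 is close to the background of 2 unlike cell types.

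Monocyte-derived cells against microglia of the same stroke day 2 libraries had 8 of 10 enzymes higher and Hk2 lower, where 42.1% of 8981 genes were called. The differences were 1.16 ± 0.19 for Eno1, 1.00 ± 0.22 for Aldoa, 0.82 ± 0.16 for Gpi1, 0.79 ± 0.20 for Pkm, 0.75 ± 0.22 for Ldha, 0.66 ± 0.16 for Pgk1 and 0.58 ± 0.21 for Tpi1. Pfkp was the eighth, with 45.3 to 73.6 CPM in monocyte-derived cells and 0 to 17.3 CPM in microglia, and Hk2 was at -0.52 ± 0.18 (edgeR adjusted p = 0.0318). Gapdh gave 0.08, and -0.19 with its processed copies added, and did not pass the test in either case. Without library 3 all 9 calls held, from 0.67 (Pgk1) to 1.29 (Eno1) for the 7 with a measurable level in both. Without TMM scaling only 4 were called, as the median of all genes moved by -0.39, and without library 1 or library 2 5 were called in each case. Without TMM scaling Aldoa (0.55), Pkm (0.33), Ldha (0.30), Pgk1 (0.27) and Tpi1 (0.14) were lost. Tpi1, Pkm and Ldha were lost without library 1 or library 2, Pgk1 also without library 1 and Hk2 also without library 2. The Tpi1 call was lost with DESeq2 too (adjusted p = 0.201). At day 14, 5 of 10 were called with 36.1% of 9296 genes: Eno1 (0.69 ± 0.15), Pkm (0.65 ± 0.12), Ldha (0.46 ± 0.12) and Pfkp higher in monocyte-derived cells, and Hk2 lower (-1.12 ± 0.16, edgeR adjusted p = 0.000236). Gpi1, Aldoa, Tpi1, Gapdh and Pgk1 gave -0.08, -0.15, 0.17, -0.16 and 0.24, and Gapdh with its processed copies added gave -0.06. The Ldha call at day 14 was lost without library 2 (0.41, edgeR adjusted p = 0.0571). Hypoxia genes were higher in monocyte-derived cells at day 2 for 9 of 13 tested, among them Vegfa and Hilpda (3.66 ± 0.23), and 11 proliferation genes were higher in microglia; without library 3 these counts were 9 and 12.

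Microglia of aged brains were compared in fewer libraries. Pkm was at 142 CPM in the male and 174 CPM in the female sham library, and at 734, 727 and 686 CPM in the 3 stroke day 2 libraries. Ldha was at 146 and 139 CPM in sham and 277, 497 and 321 CPM at day 2. Pgk1 was at 27.0 and 25.7 CPM in sham and 132, 96.9 and 86.0 CPM at day 2. In these 3 genes every stroke library was above every sham library, with differences of 2.17 ± 0.22, 1.35 ± 0.32 and 2.00 ± 0.31. The same held for Gpi1, Tpi1, Gapdh and Eno1 (0.60, 0.66, 1.40 and 1.08), while Aldoa overlapped, at 267 and 291 CPM in sham and 506, 471 and 282 CPM at day 2 (0.59 ± 0.29). Hk2 was below sham in every stroke library (139 and 126 CPM against 85.8, 46.9 and 69.2 CPM, a fitted ratio of 0.499 with an SE of 0.31 on the log2 scale). How many of all genes separated in these ways was not counted, so the separation is a description. EdgeR called 0 of the 9 enzymes and 0% of 8210 genes, with 7 of the 9 at an unadjusted p under 0.05 and 4 called by DESeq2; the edgeR adjusted p was 0.0636 for Pkm, 0.0639 for Pgk1, 0.0775 for Gapdh, 0.103 for Ldha and 0.156 for Hk2. The counts by unadjusted p and by DESeq2 have no share of all genes beside them, so they have no background. With its processed copies added, Gapdh differed by 0.58 ± 0.58 (edgeR adjusted p = 0.661) in place of 1.40 ± 0.27. In aged microglia the microglial markers summed to 9157 to 9470.05 CPM in sham and 2425 to 5750.5 CPM at day 2. Both sexes are in the aged sham and day 2 groups and young mice are males, so age and sex composition cannot be told apart.

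The difference between aged and young mice in the effect of stroke at day 2 was tested as an interaction, with 0 of 9 enzymes and 0% of 11096 genes called by edgeR, 1 enzyme at an unadjusted p under 0.05 (Tpi1, -1.07 ± 0.50) and 0 by DESeq2. The interaction, aged minus young, was -0.79 ± 0.42 for Pkm, -0.92 ± 0.50 for Ldha and -0.07 ± 0.56 for Hk2, with standard errors from 0.40 (Gpi1) to 1.01 (Gapdh). Without the cells labelled microglia of library 3 it was -0.77 ± 0.40 for Pkm, -0.79 ± 0.48 for Ldha and -0.16 ± 0.54 for Hk2, with 0 enzymes called by edgeR. The aged stroke day 14 library had Pkm at 272 CPM, Ldha at 238 CPM, Pgk1 at 58.0 CPM and Hk2 at 83.1 CPM. It has no replicate.

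In blood, most enzymes made up a larger share of the counts in neutrophils than in monocytes, and levels per cell were not compared. Against monocytes of the same 11 libraries, 7 of 10 enzymes were higher and none lower, in a comparison of 2 unlike types where 82.4% of 5103 genes were called, so that the share of enzymes called is below the background. Pkm was at 1168 ± 164 CPM in sham neutrophils and 451 ± 62.8 CPM in sham monocytes (n = 4 each), without overlap. The difference over all blood libraries was 1.82 ± 0.10 for Pkm, 1.69 ± 0.09 for Gpi1, 1.64 ± 0.14 for Gapdh, 1.63 ± 0.10 for Aldoa, 1.24 ± 0.11 for Ldha, 0.89 ± 0.13 for Pgk1 and 0.75 ± 0.11 for Eno1, and Hk2, Pfkp and Tpi1 did not pass the test. Without TMM scaling the median of all genes moved by -0.58 and the Eno1 call was lost (0.18, edgeR adjusted p = 0.149).

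Blood cells after stroke showed few calls among the enzymes. In neutrophils edgeR called 0 of 10 at day 2, with 0% of 4944 genes called, 0 at an unadjusted p under 0.05 and 0 by DESeq2. The differences ran from -0.66 (Pfkp) to 0.09 (Ldha). At day 14 against sham 2 of 10 fell and 5.99% of genes were called. Gapdh was at 735, 899, 954 and 881 CPM in sham and 679, 553 and 240 CPM at day 14 (fell by 1.10, SE 0.29; edgeR adjusted p = 0.0317), and Tpi1 at 86.6, 112, 91.3 and 109 CPM and 77.7, 61.6 and 37.9 CPM (fell by 0.98, SE 0.27; edgeR adjusted p = 0.0412). Neither gene overlapped between the groups, and day 14 library 3 was lowest in both. Of the others, Pgk1 gave -1.09, Ldha -0.73, Gpi1 -0.66, Aldoa -0.59, Eno1 -0.55, Pkm -0.54, Pfkp -0.11 and Hk2 0.90. Without library 3 the changes of Gapdh and Tpi1 were -0.76 (edgeR adjusted p = 0.0979) and -0.77 (edgeR adjusted p = 0.17). The Tpi1 call was lost when any of the 7 libraries was left out (edgeR adjusted p at least 0.0535) and the Gapdh call also without sham library 1 (0.0682), sham library 3 (0.0652) or day 14 library 2 (0.0609), and without TMM scaling, which moved the median of all genes by 0.34, neither was called. The neutrophil markers summed to 198530 to 302058 CPM in sham and 112285 to 189942 CPM at day 14, a difference whose part in these falls was not tested. Between the 2 stroke times edgeR called 0 of 10 neutrophil enzymes, with 4.69% of genes called, 3 at an unadjusted p under 0.05 and 2 by DESeq2. The last 2 counts have no share of all genes beside them.

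For blood monocytes edgeR called 0 of 10 enzymes at day 2, at day 14 and between the times, with 0%, 0.254% and 0.537% of 6706 genes called, 0, 0 and 2 enzymes at an unadjusted p under 0.05 and 0 by DESeq2 in each. The day 2 differences ran from -0.22 (Gapdh) to 0.30 (Gpi1). In blood B cells it called 0 of 9 with 0%, 0.0114% and 0.0114% of 8762 genes, and in blood T cells 0 of 9 with 0%, 0% and 0% of 5731 genes; none was at an unadjusted p under 0.05 and DESeq2 called 0. For blood NK cells 2 enzymes passed the filter, and edgeR called 0 of 2 in each comparison, with 0% of 1000 genes called in all 3, 1 at an unadjusted p under 0.05 at day 2 and 0 by DESeq2. Dendritic cells of blood could be compared at day 14 with sham, with 0 of 6 called by edgeR, 1.48% of 1626 genes called, 1 enzyme at an unadjusted p under 0.05 and 0 by DESeq2. Whether the effect of stroke at day 2 differed between blood monocytes and monocyte-derived cells of the brain was not tested.

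Set directly against blood monocytes of stroke day 2, monocyte-derived cells of the brain had 5 of 10 enzymes higher, where 24.7% of 7540 genes were called. Tpi1 was higher by 2.12 ± 0.23 (edgeR adjusted p = 4.47e-05), Ldha by 1.84 ± 0.27 (edgeR adjusted p = 0.000375), Pkm by 1.65 ± 0.29 (edgeR adjusted p = 0.00135), Aldoa by 1.63 ± 0.41 (edgeR adjusted p = 0.0128) and Eno1 by 1.09 ± 0.29 (edgeR adjusted p = 0.0171). Pfkp, Hk2, Pgk1, Gapdh and Gpi1 gave 0.70, 0.57, 0.39, 0.31 and -0.33 and did not pass the test, and Gapdh with its processed copies added gave 1.08 ± 0.40 (edgeR adjusted p = 0.0702). Ldha was at 614 to 832 CPM in the 4 brain libraries and at 181 to 311 CPM in the 4 blood libraries, and Tpi1 at 390 to 467 and 93.0 to 146 CPM, without overlap. The calls of Aldoa and Eno1 were lost without 1 of the blood libraries, number 3 (edgeR adjusted p = 0.0681 and 0.0624). Brain and blood cells were isolated in different ways, so tissue and isolation cannot be told apart. Granulocytes of the brain against neutrophils of the blood, both at stroke day 2, had 1 of 8 enzymes lower and none higher, with 9.16% of 1976 genes called. This was Gapdh, at 405, 174, 54.0 and 252 CPM in brain and 807, 846, 691 and 644 CPM in blood (-1.85 ± 0.39, edgeR adjusted p = 0.00571), and it was at -1.61 ± 0.40 without brain library 3, which is low in ribosomal protein genes (edgeR adjusted p = 0.0193). With its processed copies added the difference was -1.04 ± 0.31 (edgeR adjusted p = 0.0457).

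The likeness of the enzymes to each other was described across cell types and libraries. Over 102 sums of a young brain library and cell type, the Pearson correlation of log2(CPM + 1) was highest between Eno1 and Gpi1 and between Aldoa and Ldha (0.65 each) and then between Eno1 and Ldha (0.57), and it was 0.10 between Gapdh and Ldha and -0.02 between Hk2 and Ldha. These sums share libraries and differ in depth, so the values are a description. They include the 3 libraries with a low Gapdh row, whose part in the correlations of Gapdh was not tested. Among 6261 genes, those most like Hk2 were Cd300a (0.78), Aif1 (0.77) and Abca9 (0.76), those most like Pkm were Sdcbp (0.76), Rac1 (0.70) and Cox14 (0.67), and those most like Ldha were Gnai3 (0.75), Tkt (0.74) and Txnrd1 (0.68). The closest to Tpi1 was Ppt1 (0.67), to Gpi1 Sri (0.69), to Pgk1 Phf23 (0.63), to Pfkp Ly6c2 (0.62) and to Gapdh Hnrnpa3 (0.70). Another enzyme of the 10 stood among the 3 most alike for Gpi1 (Eno1), Aldoa (Ldha) and Eno1 (Gpi1), and for none of the other 7.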

How the data were processed

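The members and the gene lists were chosen with earlier results of these data known. The authors deposited expected counts per gene and cell, 1 table per library, with a percent of mitochondrial counts and cell type codes at 2 levels in the deposited metadata. Seurat and mm10 are named per the submitters' processing notes; the aligner, the cell filters and the step that made the counts fractional are not given in the sources used here, and between 0.00866% and 4.47% of a library's values above 0 were whole. Every deposited cell was kept, and no doublet caller was run. Counts were summed per library and coarse cell type (at least 20 cells), rounded, and fitted over all genes in edgeR 4.0.16 by its quasi-likelihood test (R 4.3.3, limma 3.58.1), with TMM scaling and filterByExpr on group, and all groups of a cell type in 1 fit. Adjusted p is by Benjamini-Hochberg over all genes tested, with a threshold of 0.05. Shares of all genes called are for edgeR at that threshold. Counts by unadjusted p, by DESeq2 or in most other alternatives have no such share beside them, so they have no background. The share of all genes whose groups did not overlap was not counted either, so a separation of groups is a description. Comparisons of cell types within libraries had the library as a block. DESeq2 1.42.0 was an alternative, with others on filter, scaling, rounding, cell number, pseudogene rows, covariates and left-out libraries; those on pseudogenes found by sequence (at least 90% identity over 200 bases), on ribosomal protein and mitochondrial rows and on the library classes were added after the data were seen. The rule was to name all 10 enzymes in each comparison and, of the other lists, called genes; where few or no enzymes were called, and in comparisons with day 14, some enzymes without a call are given by range or count only. Genes most like an enzyme were taken by Pearson correlation of log2(CPM + 1) among genes that averaged 20 CPM or more. The fit was run on simulated counts for microglia at day 2 against sham, with a spread shared by all genes. They held no library classes and no cells against their label, so this run does not check single calls. Replicate numbers were not used to pair samples, since same-numbered microglial libraries had correlations of their deviations from -0.29 to 0.55. 1 microglial marker is not reported here and was left out of the marker sums.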

Additional observations from a re-analysis of the deposited data

Results flagged for a closer look

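Of 81 groups of 4 libraries or more that were examined for a library standing far from the rest, 5 had one, and chance gives about 1 in 20. These 81 did not cover every cell type, group and enzyme of the series. In endothelial cells of sham brains, Tpi1 was at 234.265 CPM in library 1 against 113 to 128 CPM in the other 3. Eno1 in monocyte-derived cells of stroke day 2 was at 326.848 CPM in library 2 against 496 to 525 CPM. Gpi1 in sham microglia was at 110.786 CPM in library 1 against 80.4 to 85.1 CPM. Ldha in sham microglia was at 109.879 CPM in library 4 against 129 to 132 CPM. Gpi1 in microglia of stroke day 14 was at 224.593 CPM in library 3 against 120 to 137 CPM. Library 1 of sham and library 3 of stroke day 14 are among the 3 that were low in ribosomal protein genes, whose part in these values was not tested.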

How the results depend on the processing

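The count of 7 enzymes called in microglia at day 2 lay between 6 and 8 over all alternatives, and it was 7 with the replicate number as a block (replicate block). No called enzyme changed direction in any alternative: 58 of 61 calls with a DESeq2 value held with it, and of 62 calls 49 held without TMM scaling, 57 without the filter and 62 with the pseudogene rows found by sequence, and leaving out 1 library lost 70 of 435. The following counts of called enzymes moved, and the cause was not tested. The share of all genes called in each alternative is not given here, so these counts have no background. With the replicate block, the count went from 1 to 0 in microglia and border-associated macrophages (day 14 against day 2) and in monocyte-derived cells (day 14 against sham), from 0 to 2 in dendritic cells (day 14 against day 2) and from 2 to 1 in blood neutrophils (day 14 against sham). It changed no other count of enzymes by over 1.5 times. For microglia at day 14 against day 2 (1 call), 0 were called with at least 100 cells, with counts rounded up, without the filter and with only the compared groups, 3 with the library classes (low ribosomal protein or low mt-Rnr2 counts) as terms and 0 to 2 with a library left out. In endothelial cells, day 14 against day 2 went from 2 to 1 without TMM or without the filter and to 1 to 2 with a library left out, as did day 2 against sham (1 to 2). In border-associated macrophages, day 2 against sham (1) gave 2 with only the compared groups, 3 with the library classes and 1 to 2 with a library left out, and day 14 against day 2 (1, Pkm) gave 0 without the filter and 0 with DESeq2, which gave Pkm no adjusted p, 2 with the library classes and 0 to 1. For dendritic cells, day 2 against sham (0) gave 2 without the filter, 1 with the library classes and 0 to 1, and day 14 against day 2 (0) gave 1 with DESeq2, at least 100 cells, only the compared groups, pseudogene rows, or ribosomal protein and mitochondrial rows left out, 2 with the library classes and 0 to 1. In monocyte-derived cells, day 14 against sham (1) gave 0 without TMM, with only the compared groups, without the 3 libraries low in ribosomal protein genes and with any library left out (0 to 0), and day 14 against day 2 (2) gave 4 with DESeq2 or the library classes, 0 with at least 100 cells or only the compared groups, 1 without the filter or without those 3 libraries, and 0 to 4. In blood neutrophils, day 14 against sham (2) gave 4 with DESeq2 or no filter, 0 without TMM and 0 to 2, and day 14 against day 2 (0) gave 2 with DESeq2 or no filter, 1 with only the compared groups and 0 to 1. Aged microglia (0) gave 4 with DESeq2 or no filter, 2 with the 4 day 2 groups together and 0 to 4. Monocyte-derived cells against microglia at day 2 (9) gave 4 without TMM and 5 to 9, against blood monocytes (5) they gave 3 to 6, and brain granulocytes against blood neutrophils (1) gave 3 with DESeq2 or counts rounded up and 2 without the filter. Sham monocyte-derived cells numbered 43 to 99 per library, which limits their precision.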
